A study of Mus musculus with 11 samples.

Results

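Of the 39700 MyoD peaks called in C2C12 myotubes, 12678 (31.9%, exact 95% binomial interval 31.5 to 32.4%) lay in chromatin that already carried H3K4me1 in myoblasts but had no MyoD peak there. These premarked new sites were chosen by 3 deposited region lists: a myotube MyoD peak was taken if it shared no base with any of 18141 myoblast MyoD peaks and at least 1 bp with 1 of 66863 myoblast H3K4me1 domains. The choice therefore rests on measured values, and the MyoD score, the absence of a myoblast peak and the myoblast mark are given below as descriptions of the sites and not as findings. The other myotube MyoD peaks served as comparison: 13527 kept from myoblasts (34.1%), 9396 new peaks with H3K4me1 in myotubes only (23.7%) and 4099 new peaks without the mark at either stage (10.3%).

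C2C12 is a mouse myoblast line that stops dividing and forms multinucleate myotubes in low serum. Chromatin immunoprecipitation with sequencing (ChIP-seq) was done on proliferating myoblasts in 10% fetal bovine serum (MyoD and H3K4me1) and on myotubes after 48 h in 2% horse serum (MyoD, MyoG and H3K4me1). PolyA RNA was sequenced at 4 h in differentiation medium from cells given RNA interference against the transcript of the distal regulatory region of Myod1 (DRRi), with interference against GFP (GFPi) as control, and from cells carrying the overexpression construct pHAN_DRR1.2 or its control pHAN_GFP. Every group held 1 library, so no test between groups was possible, differences lack a replicate check, and intervals cover counting error only. The ChIP groups carry no construct in the labels, and RNA was taken at 4 h while myotube binding was measured at 48 h. No RNA of untreated myotubes was analysed here, so expression near the sites is known only early in differentiation.

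MyoD is a basic helix-loop-helix factor that pairs with E proteins and binds E-box sequences, CANNTG, and it can switch many cell types toward the muscle fate. MyoG, a related factor induced by MyoD, acts later, when muscle structural genes are switched on. H3K4me1, a methyl group on lysine of histone H3, marks enhancers, including ones that are not yet active, so that a marked site without the factor is often described as primed.

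The H3K4me1 domains held 9555012 ChIP reads in myoblasts and 8842751 in myotubes, which are sums inside domains and not library depths. The depth of the MyoD, MyoG and RNA libraries is unknown. A site under the threshold of the myoblast list and a site without MyoD in myoblasts cannot be told apart, and both count as new. In the RNA libraries, 7 of 7 skeletal muscle markers reached 1 FPKM (fragments per kilobase, scaled to the library) in every one of 4 libraries, with sums from 441 FPKM in DRRi to 1158 in pHAN_DRR1.2. Of the liver, gut and epithelium list, 1 of 14 genes reached 1 FPKM in each library, and of the endothelial, blood and neural list 2 of 15 did. Of the adipocyte and osteoblast list, 6 or 7 of 14 genes did, and its summed level, from 1380 FPKM in DRRi to 3148 in pHAN_DRR1.2, was above the muscle sum in every library. Spp1, the secreted matrix protein osteopontin, made up most of that sum, with 1351 to 3103 FPKM. The level of 1 gene does not by itself show that adipocytes or osteoblasts were present, and this was not tested.

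The genomic sequence under the peaks was not used here. Of the muscle and control lists, 36 genes had their transcription start under a premarked new site. Of these, 12 also had a single RefSeq promoter and a locus length within 10 bp of RefSeq. The 7 promoters below, picked from the 12 after their values were seen, show the E-boxes of 4 muscle genes and of 3 genes of growth and stress beside the binding values. They are the 250 bases before the start, 5′ to 3′ on the gene's strand, from RefSeq on build GRCm38.p6, with each CANNTG in capitals. Peak positions elsewhere in the text are on mm9, the build of the files, counted from 1.
Pgam2, chr11:5803797-5804046, minus strand: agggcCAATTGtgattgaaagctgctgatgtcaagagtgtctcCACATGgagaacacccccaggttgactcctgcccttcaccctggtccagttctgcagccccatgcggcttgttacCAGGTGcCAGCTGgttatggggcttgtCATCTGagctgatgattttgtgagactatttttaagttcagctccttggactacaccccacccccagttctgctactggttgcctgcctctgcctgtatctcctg
Kcnj2, chr11:111065914-111066163, plus strand: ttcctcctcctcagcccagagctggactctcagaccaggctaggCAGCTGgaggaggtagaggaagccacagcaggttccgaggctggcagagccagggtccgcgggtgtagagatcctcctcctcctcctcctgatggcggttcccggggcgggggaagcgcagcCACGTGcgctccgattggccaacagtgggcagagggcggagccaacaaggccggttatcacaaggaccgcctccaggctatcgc
Cav3, chr6:112459255-112459504, plus strand: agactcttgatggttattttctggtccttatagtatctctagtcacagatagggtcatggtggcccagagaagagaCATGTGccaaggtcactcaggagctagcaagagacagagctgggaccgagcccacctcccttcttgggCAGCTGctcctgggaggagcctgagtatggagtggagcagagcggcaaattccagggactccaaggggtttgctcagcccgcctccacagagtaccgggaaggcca
Cdk2, chr10:128705052-128705301, minus strand: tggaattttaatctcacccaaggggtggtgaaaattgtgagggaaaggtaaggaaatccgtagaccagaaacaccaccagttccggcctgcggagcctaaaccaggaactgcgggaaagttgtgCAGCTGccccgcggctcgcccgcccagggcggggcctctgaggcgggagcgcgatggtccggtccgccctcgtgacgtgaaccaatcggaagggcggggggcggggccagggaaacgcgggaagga
Tnnc2, chr2:164779735-164779984, minus strand: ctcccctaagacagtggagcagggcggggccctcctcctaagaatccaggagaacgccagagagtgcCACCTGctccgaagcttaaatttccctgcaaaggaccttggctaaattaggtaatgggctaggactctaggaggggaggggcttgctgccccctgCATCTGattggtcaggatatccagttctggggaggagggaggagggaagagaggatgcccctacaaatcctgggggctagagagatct
Sesn2, chr4:132510457-132510706, minus strand: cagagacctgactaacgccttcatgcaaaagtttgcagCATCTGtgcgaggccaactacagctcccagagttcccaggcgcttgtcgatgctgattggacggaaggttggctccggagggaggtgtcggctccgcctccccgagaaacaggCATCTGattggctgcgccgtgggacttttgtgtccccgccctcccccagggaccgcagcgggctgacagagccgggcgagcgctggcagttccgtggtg
Igfbp5, chr1:72874866-72875115, minus strand: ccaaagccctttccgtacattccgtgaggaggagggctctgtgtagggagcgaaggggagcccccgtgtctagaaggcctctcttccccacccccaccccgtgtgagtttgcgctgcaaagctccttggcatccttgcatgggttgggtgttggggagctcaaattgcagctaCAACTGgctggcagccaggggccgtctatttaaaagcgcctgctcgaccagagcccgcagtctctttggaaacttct

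Pgam2 encodes the muscle form of phosphoglycerate mutase, a glycolytic enzyme. Its window held 5 E-boxes, with CAGGTG 132 and CAGCTG 125 bases before the start, and the MyoD peak there (score 646) was centred 5 bp from the start. Kcnj2, an inward rectifier potassium channel that sets the resting potential of fusing myoblasts, had a CAGCTG 206 bases before its start under a peak of score 629. Cav3, the muscle caveolin of the sarcolemma, had CAGCTG at 106 bases under a peak of score 399, which also carried a MyoG peak of score 605. The start of Cdk2, a cyclin-dependent kinase of S phase entry, had CAGCTG at 126 bases and a MyoD peak of score 315.

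The other 3 windows held no CAGCTG. Tnnc2, fast troponin C, had CACCTG at 183 bases, the reverse complement of CAGGTG, under a peak of score 249 without a MyoG peak. This Tnnc2 peak lay only 0.146 kb from a myoblast MyoD peak. Sesn2, a stress-induced target of p53, had CATCTG at 212 and at 99 bases under a peak of score 127. Igfbp5, an IGF-binding protein made in quantity by differentiating myoblasts, had a single CAACTG at 77 bases, also without MyoG, under a peak of score 83.1. Over all 12 promoters, peaks scored from 75.8 to 877 where the window held CAGCTG and from 63.5 to 249 where it did not, so the ranges overlapped. The strongest starts of the 36, Tnnt2 with a peak of score 1187 and Pygm with 1159, were not among the 12.

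Over all matched genes, 701 starts lay under a premarked new site, and 24.1% of their 250 base windows held CAGCTG. Each gene gave 1 window, that of its first listed RefSeq promoter. For genes with several promoters this window need not be at the start under the peak. The share was 32.1% for 616 starts under kept peaks, 24.0% for 129 under new peaks with the mark in myotubes only, 19.1% for 345 under new peaks without the mark, and 9.99% for 12470 starts under no myotube MyoD peak. Among 32851 promoters of the RefSeq table it was 13.0%. The other MyoD-type E-box, CAGGTG, read on both strands, was in 22.3% of windows under premarked new sites and 17.2% of all promoters. It was in 23.7% under kept peaks, 27.9% under new peaks with the mark in myotubes only and 20.9% under those without the mark. Starts under no myotube MyoD peak had it in 15.3%. Any CANNTG, which includes both of these, was in 70.04% under premarked new sites and 66.2% of all promoters. Kept peaks had it in 73.5% and starts under no peak in 60.6%. The binding site of AP-1, TGANTCA, was in 4.28% under premarked new sites, 5.19% under kept peaks and 6.75% of all promoters. GGAATG, the site of TEAD factors, was in 10.7%, 12.8% and 12.6%, and in 16.3% under new peaks with the mark in myotubes only. The median GC content was 59.6% under premarked new sites and 55.6% at starts with no peak, and 88.0% against 48.4% of the genes reached 1 FPKM in GFPi; their part in the motif shares was not tested.

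The premarked new sites had moderate MyoD scores. Scores are the authors' own peak scores, of at least 60, and are compared only within the myotube list. The median was 129 (quartiles 83.8 and 246), against 404 for kept peaks, 159 for new peaks with the mark in myotubes only and 97.7 for new peaks without it. When the whole list was split into 4 equal groups by score, 33.0% of the sites fell in the lowest group and 12.1% in the highest, while 48.1% of kept peaks fell in the highest. At 3100 and above, where scores reach a ceiling, there were 10 premarked new sites and 530 kept peaks.

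**Figure D1:**
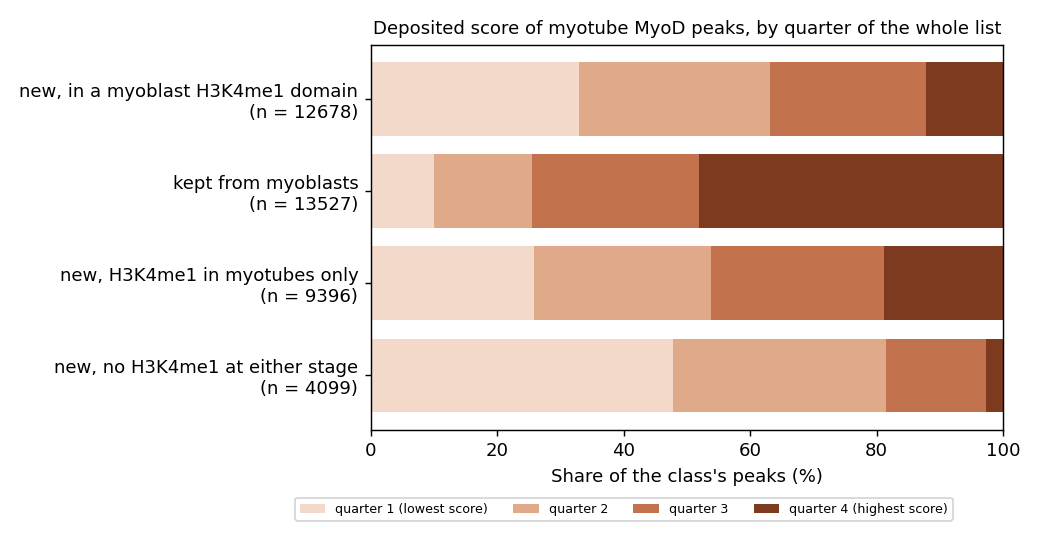
Share of each class of myotube MyoD peak (x axis, percent) in each of 4 equal groups of the whole myotube list by deposited score, 1 bar per class. Premarked new sites have 12.1% of their peaks in the highest group and kept peaks 48.1%.

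The strongest premarked new site, chr9:34848833-34849694, had a score of 3142 and a MyoG peak of score 2282. It lay within 10 kb of Dcps, St3gal4 and Kirrel3, the last a cell adhesion molecule of the immunoglobulin family. The H3K4me1 domain under it widened from 3.2 kb at 1.60-fold over control in myoblasts to 10.8 kb at 4.37-fold in myotubes. The site at chr15:76843411-76846155, near Apol6 and Mb, the gene of the muscle oxygen store myoglobin, scored 3100 for MyoD and for MyoG, and its domain widened from 2.6 to 38.2 kb. A site 8511 bp from Dag1, the gene of dystroglycan, which ties the muscle membrane to the extracellular matrix, had a MyoD score of 3100 and a MyoG score of 261. All 10 sites at the ceiling had a MyoG peak, and the domain was wider in myotubes at every one of them.

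The sites just inside and outside the rule had like scores. The 220 sites that overlapped the myoblast domain by 100 bp or less had a median score of 106, and the 200 new peaks that missed a domain by up to 100 bp one of 108. A further 105 sites lay within 100 bp of a myoblast MyoD peak, with a median score of 123. Of the 12678 sites, 8900 (70.2%) lay wholly inside a myoblast domain. The site centre was a median of 794 bp from the nearest edge of the domain, against 1336 bp for kept peaks in myoblast domains.

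MyoG, which was not used to choose the sites, had a peak at 7654 of them (60.4%, interval 59.5 to 61.2%), against 66.9% of all myotube MyoD peaks. Kept peaks overlapped MyoG in 80.8% (80.1 to 81.4%), new peaks with the mark in myotubes only in 64.8% (63.9 to 65.8%), and new peaks without the mark in 45.6% (44.1 to 47.2%). The MyoG centre was a median of 49 bp from the MyoD centre. Sites with MyoG had a median MyoD score of 183 and sites without it 90.8. Of the 5024 sites without a MyoG peak, 832 (16.6%) had one within 1 kb.

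Within groups of the MyoD score, the shares of all classes, with and without the mark, drew closer together toward the highest group. In the highest of the 4 score groups, 95.5% of premarked new sites and 95.2% of kept peaks overlapped MyoG. The next group had 80.5% and 79.2%. New peaks without the mark stood at 92.0% (85.3 to 96.3%) in the highest group. Scores still differed there, with medians of 682 for premarked new sites and 1044 for kept peaks. In the lowest group the shares were 35.0% for premarked new sites, 46.0% for kept peaks, 37.8% for new peaks with the mark in myotubes only and 30.0% for new peaks without the mark. Within the premarked new sites the share climbed from 31.7% of 2778 at scores of 60 to 80 to 65 of 65 at 2000 and above. Kept peaks stood higher in each step below 150, with 44.3% at scores of 60 to 80. Premarked new sites stood higher at scores of 300 to 500, with 89.1% against 85.6%. They were also higher at 500 to 1000 (94.6% against 92.5%) and at 1000 to 2000 (99.1% against 97.2%). The MyoD and MyoG lists come from different libraries of the same myotube stage, and their shared library preparation and depth were not tested.

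**Figure D2:**
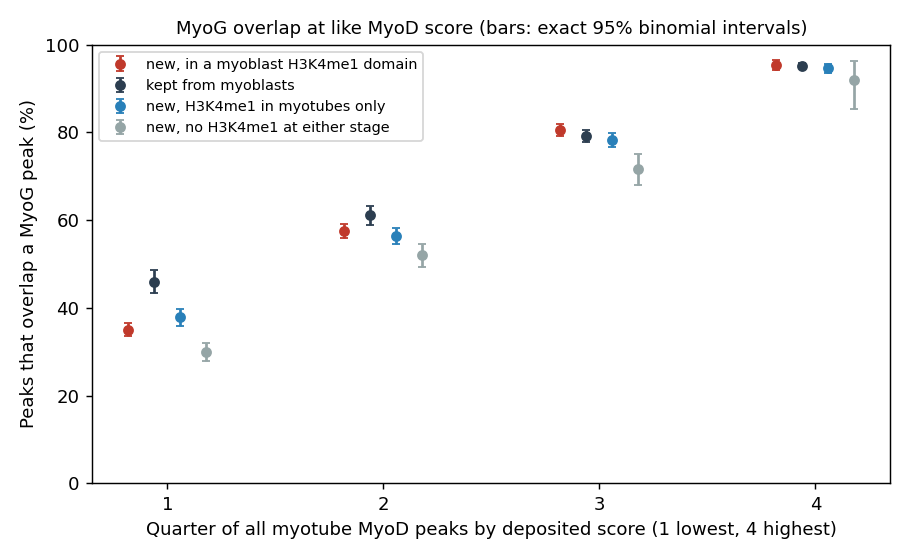
Share of myotube MyoD peaks that overlap a MyoG peak (y axis, percent), in 4 equal groups of the whole list by score (x axis), 1 point per class, with exact 95% binomial intervals. In the highest group premarked new sites stand at 95.5% and kept peaks at 95.2%; in the lowest they stand at 35.0% and 46.0%.

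The mark was found again in myotubes at 12050 of the sites (95.05%, 94.7 to 95.4%), against 85.0% of all myotube MyoD peaks, a background that includes peaks chosen for lacking the mark. It was 91.0% of all kept peaks, and 96.0% of the 11775 kept peaks that also lay in a myoblast domain. By score group the share for premarked new sites went from 92.4% in the lowest to 99.2% in the highest. The 628 sites without a myotube domain had a lower median score (93.7), a smaller share with MyoG (39.8%) and a narrower myoblast domain (2.0 kb against 3.8 kb). Of these, 317 (50.5%) had a myotube domain within 1 kb.

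Counted by domain, 10715 of the 66863 myoblast domains (16.03%) held premarked new sites, and 10360 of these (96.7%, 96.3 to 97.0%) overlapped a myotube domain. Among 48279 domains without any myotube MyoD peak 62.5% (62.0 to 62.9%) did. Domains with kept peaks and no premarked new site stood at 95.7% (95.2 to 96.1%). Domains with a site were wider, a median of 3.2 kb against 2.0 kb for those without a MyoD peak, and wide domains meet others more readily. Among 4 groups of domains by width, 88.4% with a site and 46.0% without a MyoD peak were found again in the narrowest group, and 99.6% and 87.8% in the widest. MyoD in myotubes and the myotube mark were measured in the same stage, so the order in which they came cannot be told apart.

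Where the mark was present at both stages, the domain at the premarked new sites had a median width of 3.8 kb in myoblasts and 5.4 kb in myotubes, and it was wider in 64.2%. The authors' fold of ChIP over control went from 2.37 to 3.35, a median log2 difference of 0.49, and was higher in myotubes at 86.2% of sites. At kept peaks the fold went from 2.82 to 3.47 (0.32; higher in 78.0%) and in domains without a MyoD peak from 2.27 to 2.66 (0.22; higher in 65.3%). Folds come from libraries normalized separately, so each is read against the domains without MyoD.

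Domains were also compared within groups of like myoblast fold. Since that fold is the denominator of the difference, a fall across the groups follows from the grouping, and only values within a group are set side by side. In the lowest of 4 groups of domains by myoblast fold the median log2 difference was 0.87 for domains with a premarked new site, 0.85 for those with kept peaks only and 0.64 for those with no MyoD peak. In the highest group the values were 0.14, 0.01 and −0.29. Width was not matched within these groups, and in the highest its medians in myoblasts were 4.8, 3.8 and 1.8 kb. The part of width in the fold differences was not tested. Among premarked new sites the difference grew with the MyoD score, from 0.42 in the lowest score group to 0.67 in the highest. In the highest score group the domain at these sites widened from 3.8 to 8.0 kb. At kept peaks the difference also grew with the score, from 0.15 to 0.40. The difference at premarked new sites was 0.50 with MyoG and 0.46 without. Within each of the 4 score groups it was slightly lower with MyoG: 0.40 against 0.43 in the lowest group and 0.67 against 0.70 in the highest. The highest group held 1457 sites with MyoG and 70 without. These gaps are small beside the spread, whose 10th and 90th percentiles were −0.08 and 1.10 with MyoG and −0.14 and 1.08 without.

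**Figure D3:**
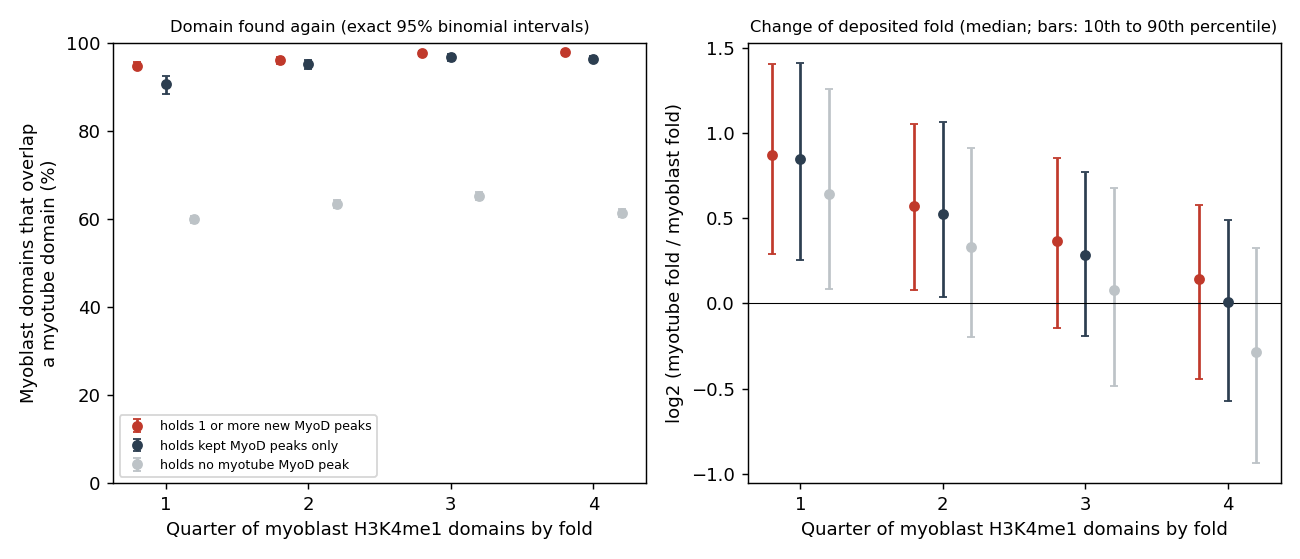
Left, share of myoblast H3K4me1 domains that overlap a myotube domain (percent, exact 95% binomial intervals), in 4 groups by myoblast fold; right, log2 of the myotube over the myoblast fold where both are called (median, bars from the 10th to the 90th percentile). In the lowest group domains with premarked new sites have a median of 0.87 and domains without a myotube MyoD peak 0.64, and in the highest 0.14 and −0.29; the fall across groups follows from grouping by the denominator.

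Most of these domains held a single site (9257), 1148 held 2 and 310 held 3 or more. A site was alone, with no other myotube MyoD peak in its domain, in 60.3% of cases, and 22.9% shared the domain with a kept peak. A 58.8 kb domain at Myh9, non-muscle myosin heavy chain, and a 55.4 kb domain at Nfix, a transcription factor of fetal muscle, held 9 premarked new sites each, beside 4 kept peaks each. MyoG was at 7 of the 9 sites in the Myh9 domain and at 4 of the 9 in the Nfix domain. The Nfix domain measured 92.2 kb in myotubes and the Myh9 domain 59.8 kb. In myoblasts the Nfix domain held 5932 ChIP reads at only 2.42-fold over control. Its sites scored from 71.4 to 227 and were 753 to 4120 bp wide, against a median of 731 bp for all premarked new sites. Whether the background is high there was not tested. Sites within 1 domain share chromatin and are not independent of each other. The nearest myoblast MyoD peak was a median of 13.3 kb away, against 26.5 kb for new peaks with the mark in myotubes only and 47.2 kb for new peaks without it.

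The premarked new sites were more often inside gene loci than the other classes, by more than the counting intervals. A share of 59.7% (58.8 to 60.5%) was inside a gene locus, against 51.7% of kept peaks (50.9 to 52.6%), 53.01% of new peaks with the mark in myotubes only (52.0 to 54.0%) and 51.7% of new peaks without it (50.2 to 53.3%). Within 10 kb of a locus the share was 74.3% (73.5 to 75.01%), against 68.4% of all myotube MyoD peaks, and beyond 50 kb it was 11.2% against 18.0% of kept peaks. A site covered a gene start in 675 cases (5.32%), against 4.303% of kept peaks and 1.30% of new peaks with the mark in myotubes only. New peaks without the mark stood higher, at 7.78%. At sites over a start, 46.2% had a MyoG peak and 80.4% the mark in myotubes, against 61.2% and 95.9% elsewhere. Kept peaks were also lower over a start, with MyoG at 77.1% against 80.9% elsewhere and the mark at 66.0% against 92.1%. The myoblast domains lie near genes themselves, and their part in this nearness was not tested.

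**Figure D4:**
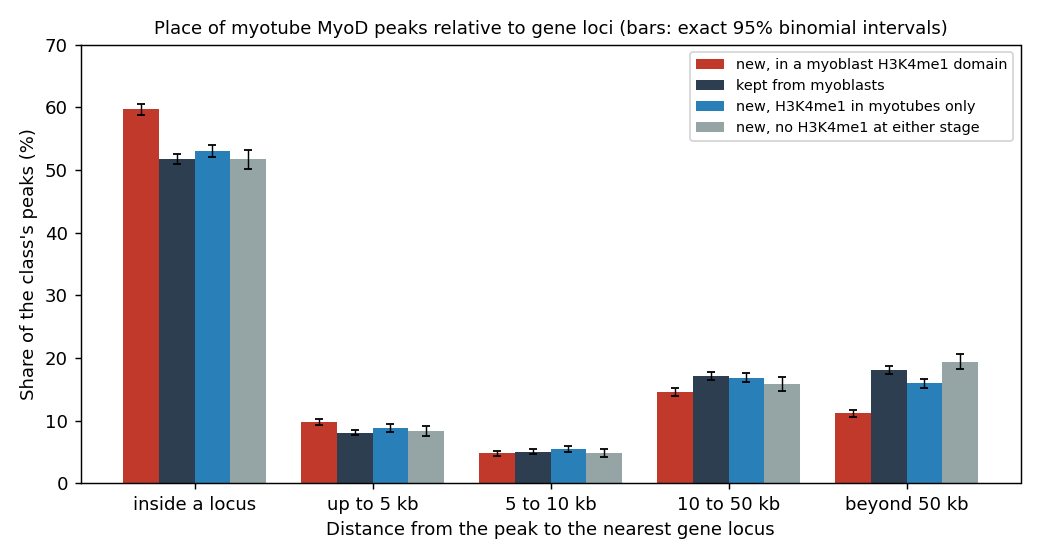
Share of each class of myotube MyoD peak (y axis, percent) by distance from the nearest gene locus (x axis), 1 bar per class, with exact 95% binomial intervals. Of the premarked new sites 59.7% lie inside a locus and 11.2% beyond 50 kb.

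Of 20368 genes, 6482 (31.8%) had a premarked new site within 10 kb. A single site was near 3573 of them, 2 near 1487, 3 near 659, and 51 genes had 10 or more. No kept peak was within 10 kb of 3059 (47.2%) of these genes, and 1726 had premarked new sites as their only class of myotube MyoD peak. The genes with the most sites were large. The gene 2010111I01Rik had 21, Cux1, a homeodomain transcription factor, had 20, and Foxp1, a forkhead repressor, had 18. Rptor, which encodes the raptor subunit of mTORC1, and Zmiz1, a coregulator of Notch and of nuclear receptors, had 17 each.

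Genes near premarked new sites were more often expressed early in differentiation. In GFPi, 74.2% (73.2 to 75.3%) of the 6482 genes reached 1 FPKM, against 41.1% (40.3 to 41.9%) of the 13886 without a site. The share was 71.2% with 1 site, 74.7% with 2 and 81.4% with 3 or more. Long loci meet more sites, and the comparison was repeated by locus length: in the shortest of 4 length groups 65.5% with and 21.1% without, and in the longest 74.2% against 45.6%. Genes with a kept peak within 10 kb, stood at 69.97%.

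Of the gene lists, which were chosen with earlier results of these data known, that of actin cytoskeleton and SRF or YAP targets had premarked new sites at the largest share of genes, 19 of 26 (73.1%). Tead1, a DNA-binding partner of YAP, had 11 sites and Mkl1, a coactivator of SRF, had 10. Immediate early genes followed with 15 of 22 (68.2%), myogenic regulators with 14 of 21 (66.7%), fusion and adhesion genes with 21 of 32 (65.6%) and genes of excitation, synapse and muscle metabolism with 28 of 43 (65.1%). Genes of the sarcomere, the contractile unit, had sites at 22 of 48 (45.8%), and 37 of these 48 had new peaks with the mark in myotubes only. Mitosis and DNA replication genes had sites at 12 of 30 (40.0%) and housekeeping genes at 6 of 16 (37.5%), beside 31.8% of all genes. All genes include ones not expressed, and of the 10577 genes compared with DRRi 4832 had a site. Kept peaks were near 21 of 26 genes of the actin list, 17 of 21 myogenic regulators, 24 of 32 fusion genes and 30 of 48 sarcomere genes. They were near 28 of 43 genes of the excitation list, as many as premarked new sites, and near 11 of 22 immediate early genes, which is fewer. Of the lists of other tissues, that of liver, gut and epithelium had sites at 6 of 14 genes (42.9%), that of adipocytes and osteoblasts at 3 of 14 (21.4%) and that of endothelial, blood and neural cells at 1 of 15 (6.67%). Locus length differs between lists, with a median of 7.63 kb for the Notch list and 65.7 kb for the fusion list, and was not matched.

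Among the myogenic regulators, Myod1 itself had 2 premarked new sites and no kept peak within 10 kb. The stronger, chr7:53620898-53621882, lay 9961 bp from the gene with a score of 1673 and a MyoG peak of score 1360, and its domain widened from 8.2 to 16 kb. The nearest myoblast MyoD peak was 0.868 kb from it. Myog had 1 site, chr1:136184136-136184830, of score 93.5 and without MyoG, in a domain that went from 1.4 to 23.4 kb. Its other peaks were 2 kept and 6 new ones with the mark in myotubes only. Tcf12, an E protein partner of MyoD, had 7 sites, and Myf5, Myf6 and Mef2c had none.

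Among contractile genes, Mylpf, the fast regulatory light chain of myosin, had 3 premarked new sites and no kept peak. The strongest, chr7:134353531-134354394, had a score of 1564 and a MyoG score of 1340. A weaker site of score 117 had no myotube domain. Myh3, embryonic myosin heavy chain, had 3 sites with MyoD scores from 396 to 471, and their domains of 1.8 kb lay inside a single myotube domain of 14.8 kb. Casq2, a calcium store protein of the sarcoplasmic reticulum, had 3 sites, the strongest of score 992 at chr3:101903007-101904352. Tnni1, slow troponin I, had 3 sites with scores from 61.0 to 675, in a region where the myotube domain covered 22.8 kb. Acta1, skeletal actin, had a site of score 1102 at 8025 bp, whose domain went from 2.6 to 13.4 kb. The adult myosin heavy chains Myh1, Myh2 and Myh4, the titin gene Ttn and the muscle creatine kinase gene Ckm had no premarked new site within 10 kb.

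The change of these genes was compared between each RNA library and its own control, on the scale of log2(FPKM + 1) for genes whose 2 libraries averaged at least 1 FPKM. The level of the targeted transcript itself was not analysed here, so the labels of these libraries have no such check. With DRRi, 44 of 4832 genes with premarked new sites (0.911%) were 2-fold or more higher and 39 (0.807%) 2-fold or more lower. Over all 10577 genes the shares were 0.898% and 0.804%, so the shares of genes with sites were near the background. With pHAN_DRR1.2, 15 of 4914 (0.305%) were higher and 3 (0.0611%) lower, against 0.318% and 0.0841% of 10699 genes. By the q-value of the authors' deposited table, under 0.05, 38 genes with sites were higher with DRRi (0.786%) and 31 lower (0.642%), beside 0.643% and 0.577% of all genes. By the same rule in the authors' deposited table, 51 were higher with pHAN_DRR1.2 (1.04%) and 29 lower (0.590%), beside 0.981% and 0.542%. The median log2 change was 0.04 with DRRi and 0.03 with pHAN_DRR1.2 for genes with sites, and 0.02 in both for all genes.

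**Figure D5:**
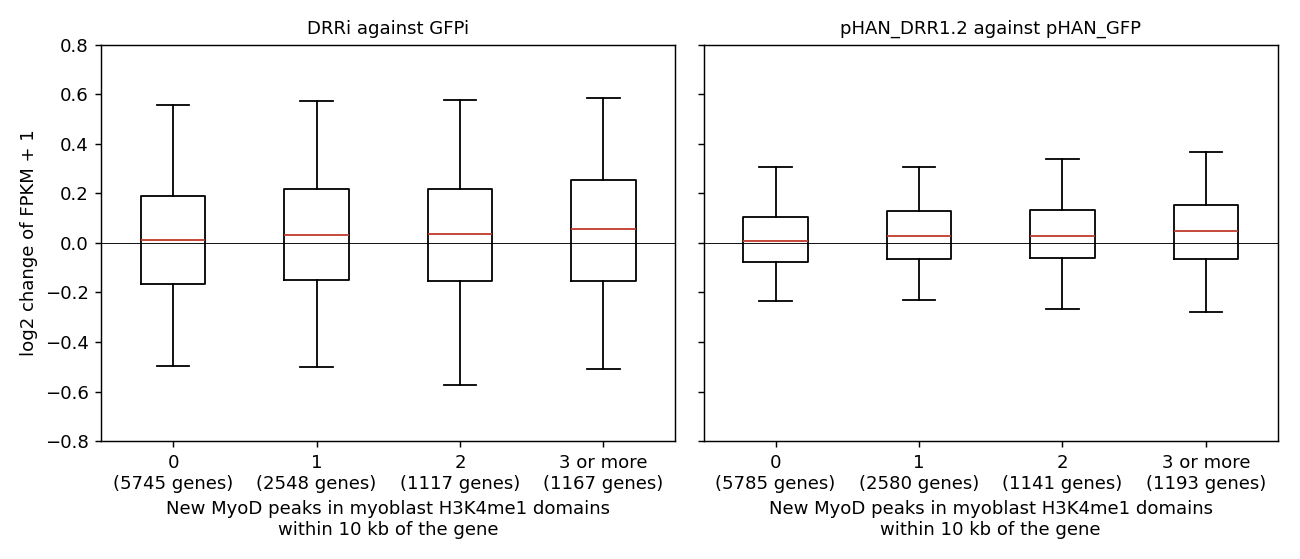
Log2 change of FPKM + 1 (y axis) for genes with 0, 1, 2 and 3 or more premarked new sites within 10 kb (x axis); boxes span the quartiles with the median as a line, and whiskers run from the 5th to the 95th percentile. The medians lie between 0.01 and 0.06 with DRRi and between 0.01 and 0.05 with pHAN_DRR1.2.

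Named genes with sites differed from their controls in both directions. Mylpf was at 7.34 FPKM in GFPi and 1.496 in DRRi, and at 20.1 in pHAN_GFP and 89.2 in pHAN_DRR1.2, the log2 changes being −1.74 and 2.10. Myog was at 10.2 in GFPi and 2.61 in DRRi, and at 26.3 in pHAN_GFP and 65.8 in pHAN_DRR1.2 (−1.64 and 1.29). Tnni1 was at 3.21 in GFPi and 0.887 in DRRi, and at 9.20 in pHAN_GFP and 27.2 in pHAN_DRR1.2 (−1.16 and 1.47). These genes were lower with DRRi and higher with the construct, as were Tnnc2 (−1.34 and 1.26) and Tmem8c (−1.46 and 1.14), the fusogen that joins myoblasts. All but Mylpf also had kept peaks within 10 kb, 4 at Tmem8c and 2 each at Myog, Tnni1 and Tnnc2. The part of each class of peak in the changes was not tested. In the authors' deposited calls, Mylpf, Myog and Tmem8c were lower with DRRi, while Tnni1 and Tnnc2 were not called. Rbm24, an RNA-binding splicing factor of muscle, was lower in both, at 7.25 in GFPi and 1.66 in DRRi and at 12.6 in pHAN_GFP and 7.11 in pHAN_DRR1.2 (−1.63 and −0.74). Over the sarcomere list the median change with DRRi was −0.21 for 16 genes with a premarked new site and −1.10 for 5 without, and with pHAN_DRR1.2 it was 0.62 for 19 with and 0.86 for 9 without, so the larger medians were those of genes without a site. Controls differ between the tables, which were normalized separately.

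The acetylcholine receptor subunit Chrnd was at 17.5 FPKM in GFPi and 3.74 in DRRi (−1.96), and at 7.75 in pHAN_GFP and 13.3 in pHAN_DRR1.2 (0.71). Igfbp5 was at 760 in GFPi and 237 in DRRi (−1.68), but at 787 in pHAN_GFP and 741 in pHAN_DRR1.2 (−0.09). Heyl, a Notch target, was at 7.23 in GFPi and 1.33 in DRRi (−1.82) and at 9.65 in pHAN_GFP and 10.7 in pHAN_DRR1.2 (0.13). These 3 genes were over 2-fold lower with DRRi and changed less with pHAN_DRR1.2. They too had kept peaks within 10 kb, 2 at Chrnd, 1 at Igfbp5 and 4 at Heyl. The only premarked new site of Chrnd scored 79.4 and lay 9210 bp away, nearer another locus. Myod1 stood at 37.7 in GFPi and 33.1 in DRRi, and at 68.9 in pHAN_GFP and 65.6 in pHAN_DRR1.2 (−0.18 and −0.07), beside the premarked new site of score 1673.

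Genes higher with DRRi included targets of the tumour suppressor p53, of which 12 of 20 had a premarked new site. Of 11 with a site that could be compared, 10 were 1.5-fold or more higher, beside 4.66% of all 10577 genes, with a median log2 change of 1.03, and the 8 without a site had a median of 0.76. Ccng1 was at 57.1 FPKM in GFPi and 172 in DRRi (1.57), Mdm2, the ubiquitin ligase of p53, at 22.5 and 52.7 (1.19), and Cdkn1a, the p21 cell cycle inhibitor, at 71.1 and 146 (1.03). With pHAN_DRR1.2 the same 3 genes differed by 0.04, 0.08 and 0.32. Col1a1, a fibrillar collagen, was at 4.32 in GFPi and 14.2 in DRRi (1.51), and the follistatin gene Fst at 1.00 and 7.48 (2.08). Cdkn1a had 2 sites without MyoG inside its locus, and Ccng1 and Mdm2 had 1 each, with MyoG. The Mdm2 site lay only 0.017 kb from a myoblast MyoD peak, and Mdm2 also had 1 kept peak. The nearest myoblast MyoD peak was 351 kb from the Ccng1 site and 14.0 and 17.7 kb from the Cdkn1a sites.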

How the data were processed

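Region lists and expression tables were used as deposited, on mm9. Per the file headers, MACS made the MyoD and MyoG peak lists; the authors' score of each peak has no definition, control or version in the sources used here. For each MyoD or MyoG sample 2 runs are named in the labels; the header of the myotube MyoD list names run 2, and whether runs were pooled is not given. H3K4me1 domains lie on 200 bp windows, with SICER credited by the submitters' processing notes; each deposited domain has read counts for ChIP and control, a p-value and a fold over control given by the authors. Expression tables hold the authors' FPKM per coding sequence with a deposited p-value and q-value; the submitters' processing notes list TopHat. Conditions that the tables name differently from the labels were taken as DRRi and pHAN_DRR1.2 because the labels tie each table to 2 samples.

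Overlap needed 1 bp. FPKM was summed per gene symbol, genes averaging at least 1 FPKM over both libraries were compared with a pseudocount of 1, which understates changes of low genes, and a peak was assigned to every locus within 10 kb. Loci come from the tables, which carry no strand; the strand of the RefSeq promoter table (GRCm38.p6) gave the start, for 14261 of 20368 symbols, and no coordinates were converted. Shares have exact Clopper-Pearson 95% intervals. With 1 library per group there was no test. Genes were named if they had the most sites, belonged to a fixed list and passed 2-fold, were among the 8 highest or lowest changes at 5 FPKM or more, or were fixed muscle genes; further list genes named for their site counts were picked after their values were seen. The sites and gene lists were chosen with earlier results of these data known. Motifs in peaks were not searched; the promoter search was added after the files were seen, although the written design had left it out. Overlap, assignment and fold code was tested on simulated data. Python 3.11.15, pandas 2.3.3, numpy 2.4.6, scipy 1.17.1 and matplotlib 3.10.9 were used. Ribosome-depleted RNA was not analysed here. A gene among those with the most sites is not reported here.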

Additional observations from a re-analysis of the deposited data

How the results depend on the processing

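Of 63 recomputed values, 37 stayed within 1.5 times the count or within the counting interval, and 26 moved. Requiring 50% of the peak in the myoblast domain gave 96.4% of sites with the myotube mark and 73.3% within 10 kb of a locus, and requiring the peak centre there 96.3% and 73.3%. A MyoD score of 100 or more left 8072 sites, with a median score of 198.96, MyoG at 74.3% and the myotube mark at 96.5%. Leaving out the lowest of 4 groups of myoblast domains by fold gave 96.0% with the mark. MyoG overlap fell to 43.0% with MyoG scores of 100 or more and 54.1% with 50% of the peak covered. The myotube mark stood at 87.8% without the lowest of 4 groups of myotube domains and 90.6% with 50% covered. The locus share was 59.7% inside loci and 88.8% within 50 kb, where 10387 genes had a site. With a pseudocount of 0.1 FPKM, genes with sites counted 77 higher and 60 lower with DRRi, and 26 and 10 with pHAN_DRR1.2. At 5 FPKM or more, 22 were lower with DRRi (0.564%, beside 0.639% of all genes) and 1 with pHAN_DRR1.2 (0.0252% beside 0.0603%). DRRi gave 27 higher for sites inside loci (0.789%) and 69 within 50 kb (0.972%), beside 0.898%. The most abundant coding sequence alone gave 13 lower with pHAN_DRR1.2 (0.265%), beside 29 (0.272%) of all genes. Expressed genes made up 78.3% for sites inside loci. With the pseudocount of 0.1, the DRRi shares of 1.59% and 1.24% sat beside 1.70% and 1.25% of all genes, and those of 0.529% and 0.204% with pHAN_DRR1.2 beside 0.626% and 0.280%. The cause of each move was not tested beyond what the setting itself changes. No paired analysis was possible because each group has 1 library and no test was made.

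Each list is 1 library, so whether another library would call the same sites is not known. The calls of new and kept depend on the depth of the myoblast MyoD list, which is not given, and 10.0% of sites have a myoblast MyoD peak within 1 kb. RNA at 4 h and binding at 48 h are different times.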

Other observations

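Rpl35, a ribosomal protein gene with premarked new sites of score 1010 and 160, was listed at 3.55 FPKM in GFPi and 2.66 in pHAN_GFP but at 976 in DRRi and 659 in pHAN_DRR1.2. The listed log2 changes, 7.75 and 7.50, had the same direction with interference and with the construct. Whether the RNA itself changed was not tested. Lars2, the mitochondrial leucyl-tRNA synthetase, with 3 sites, stood at 195 FPKM in pHAN_GFP and 52.4 in pHAN_DRR1.2 and at 63.6 in GFPi and 44.9 in DRRi. Of 23 cholesterol synthesis genes, 8 had premarked new sites, and Tm7sf2, a sterol reductase, had 3. Their median log2 change with DRRi was −0.54, and that of the 14 genes compared without a site was −0.53.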
